A study of Mus musculus with 4 samples.

Results

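The detoxification and redox enzyme genes described here were chosen by name. They are the genes on chromosomes 1 to 19 whose symbols begin with Cyp, Gst, Aldh, Akr, Adh, Cbr, Ugt, Sult, Ces, Ephx, Nqo, Gpx, Prdx, Sod (with a number where the family name is followed by one) or Txn, and that had allele specific reads at an exonic SNP. This gave 77 genes out of 8133 with such reads. No Ces gene was among them. For 1 member, Gstt3, the single SNP listed the same base for both strains, so 76 members could be tested, of which 51 had at least 10 reads over all pools and 25 had fewer.

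Foreign and endogenous lipophilic compounds are handled in steps. Cytochromes P450 oxidize them, reductases and dehydrogenases (Akr, Adh, Cbr, Aldh and Nqo) act on their carbonyl, alcohol and quinone groups, and transferases (Gst, Ugt and Sult) attach glutathione, glucuronic acid or sulfate so that the product can leave the cell. A second arm removes reactive oxygen: superoxide dismutases turn superoxide into hydrogen peroxide, peroxiredoxins and glutathione peroxidases reduce peroxides, and thioredoxin and its reductases return the electrons. In adipose tissue the same families also act on steroids, retinoids and aldehydes that come from stored lipid.

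Gonadal fat pads were taken from F1 mice of C57BL/6J (B) and DBA/2J (D), bred in both directions; in BxD the mother was B and in DxB she was D. RNA was pooled from 3 animals for the sample labelled BxD female, 2 for DxB female, 3 for BxD male and 3 for DxB male, all fed chow and labelled as 8 weeks old (the study's methods give an older age). Each F1 cell holds a B and a D copy of every autosomal gene, so the reads of the B and D alleles of 1 pool compare the copies inside the same cells, and the question was which members were expressed unequally from the 2 strains. Each combination of cross and sex is 1 pool and 1 library, so p-values measure the spread between 4 pools. The labels and the file names of 2 pools disagree: the file of the pool labelled DxB female is named as BxD male, and the file of the pool labelled BxD male is named as DxB female. On chromosome X, where a female pool carries both alleles and a male pool the mother's, D reads were 45.7%, 1.18%, 42.5% and 83.1% of reads in the 4 pools in the order just listed (SNPs with at least 1% of each allele). The values of the 2 pools in question go against their labels and with the sex in their file names. Read counts do so too. The pool labelled DxB female had 4617955 reads at exonic SNPs, the number the study lists for BxD male. The pool labelled BxD male had 4598505, the number it lists for DxB female, its pool of 2 animals. Labels are kept below only as names of the pools. The comparison of strains uses neither cross nor sex, and the comparisons that do are given with both identities. All values per pool below follow that order, BxD before DxB within females and then within males, as labelled.

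Counted SNPs gave 3388006 to 4310141 allele specific reads per pool, of which 45.8% to 46.9% carried the D base. The members took 106152 of these reads over the 4 pools, 65725 from B and 40427 from D, at 291 SNPs. By the files' annotation 121 of these SNPs are synonymous, 56 non-synonymous, 91 lie in 3′UTRs and 15 in 5′UTRs. Of the adipocyte markers, 4 of 11 (Lep, Cidec, Lpl and Car3) had counted SNPs, and together they gave 117500 to 153000 reads per 1000000 counted reads (rpm) in every pool.

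The results for several members turn on single SNPs, so the bases around them are shown first. Each line below gives 29 bases of mm9 on the plus strand, 5′ to 3′, with the B base of the SNP in capitals at position 15, counted from 1 at the 5′ end; the token names the B base, the position and the D base. At the first set of SNPs fewer than 1% of reads carried the D base. The study sequenced DNA of D mice at some SNPs read from B alone, and verified none of those variants. It therefore raised a concern about false allelic calls at such SNPs. No member was among the genes it sequenced, and whether D DNA differs from B at the member SNPs was not tested.

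Prdx1 SNP 1 (chr4:116364443-116364471, T15C): attgctttcagtgaTagagccgatgaatt
Prdx1 SNP 2 (chr4:116364485-116364513, C15A): tgccaagtgattggCgcttctgtggattc
Prdx1 SNP 4 (chr4:116371911-116371939, G15A): cttgtactctactcGtgcttaaacacatg
Gstm1 SNP 1 (chr3:107815457-107815485, C15A): gagatggggctgacCaagctgcagaaggg
Ugt1a10 SNP 21 (chr1:90112815-90112843, G15A): atcagatggacaatGccaagcgcatggaa
Txnrd1 SNP 4 (chr10:82347970-82347998, T15G): ttggaatatggctgTtgtggcctctctga
Cbr1 SNP 3 (chr16:93610184-93610212, G15A): aaggagtccatgcgGaagaaggttggcct
Adh1 SNP 2 (chr3:137949678-137949706, G15A): ccgtgtttggcctcGgaggtgtcggtctg

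At the second set, which includes SNPs of the same genes, D reads were common.

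Cbr1 SNP 4 (chr16:93610264-93610292, T15C): cttgccaggaaactTaatgagcagaggag
Cbr1 SNP 8 (chr16:93610501-93610529, T15G): ttgtatccagacttTatgaaggccaagga
Adh1 SNP 3 (chr3:137953561-137953589, G15T): ccctaaaccagactGattcaagcaccagc
Txnrd1 SNP 3 (chr10:82347811-82347839, T15C): gctcagaggctgtaTggaggctccaatgt
Sod1 SNP 1 (chr16:90221078-90221106, C15T): gccgccgcgcgtctCccggggaagcatgg
Akr7a5 SNP 2 (chr4:138870165-138870193, T15C): gtggaggagacactTcgtgcctgccacca

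The 3 Cbr1 lines come from 1 exon, and the Txnrd1 lines from different exons. At all 291 SNPs the base of mm9 was the B base. A window of 31 bases around the SNP, with the B base, was found at 1 place in mm9 for 273 SNPs and at more places for 18. With the D base it was found somewhere in mm9 for 14 SNPs, where another locus reads like the D allele. Of 16 member SNPs with at least 100 reads and fewer than 1% D, none had its D window in mm9 and 15 had the B window at 1 place (the exception is Gstm1). Of the other 119 member SNPs of that depth, 2 had the D window in mm9. Within 49 bases, the reach of 1 read, 10 of the 16 had another listed variant (62.5%), against 51 of the 119 (42.9%), and over all genes 335 of 823 (40.7%) against 5455 of 17320 (31.5%). With 3 or more such neighbours the order among members was the other way, at 0 of the 16 against 9 of the 119 (7.56%), and over all genes the shares were 2.67% and 2.21%.

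Of the 76 members tested, 18 passed the strain test (edgeR quasi-likelihood test, Benjamini-Hochberg adjusted p under 0.05 over 8042 genes), 15 with more B and 3 with more D. Over all genes 18.1% passed, 13.3% with B higher and 4.89% with D higher. In each of the 18 the direction was the same in all 4 pools. B was higher for Prdx1, Prdx3, Prdx6, Gstm1, Gsta4, Gstz1, Txnrd1, Txnrd3, Cbr1, Adh1, Nqo2, Cyp2s1, Cyp4f18, Cyp51 and Ugt1a10, and D was higher for Sod1, Akr7a5 and Aldh16a1. By family, 4 of 8 peroxide and superoxide enzymes passed, 3 of 6 glutathione transferases, 3 of 6 carbonyl and alcohol reductases, 2 of 8 genes of the thioredoxin system, 3 of 30 cytochromes P450, 1 of 9 aldehyde dehydrogenases, 1 of 7 conjugation enzymes, the 1 quinone oxidoreductase and not the 1 hydrolase. Only 12 of the 30 P450 genes and 1 of the 7 conjugation genes had 10 or more reads. When B and D reads of the same animals were paired by adding the pool to the model as a block, 26 members passed (19 B, 7 D) and 30.6% of all genes did (18.3% with B higher, 12.3% with D higher). These 26 hold all 18 and add Gsto1, Akr1a4, Aldh1a3, Aldh3b1, Aldh7a1, Cyp39a1, Txndc11 and Txndc12. Without the 2 pools whose labels and file names disagree, 13 of the 18 passed, and Aldh16a1, Cyp51, Gsta4, Prdx3 and Prdx6 did not; 748 of 7754 genes passed (9.65%). Of those 13 members, 11 were higher from B (8.2% of all genes) and 2 from D (1.44%). The median log2 D to B ratio of the tested members was -0.21, against -0.03 over all genes. B and D libraries were each scaled to their own size, so a log2 ratio of 0 is not an even split of reads. Aldh18a1, for example, had a D share of 47.75% and a log2 ratio of -0.0004.

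**Figure D1:**
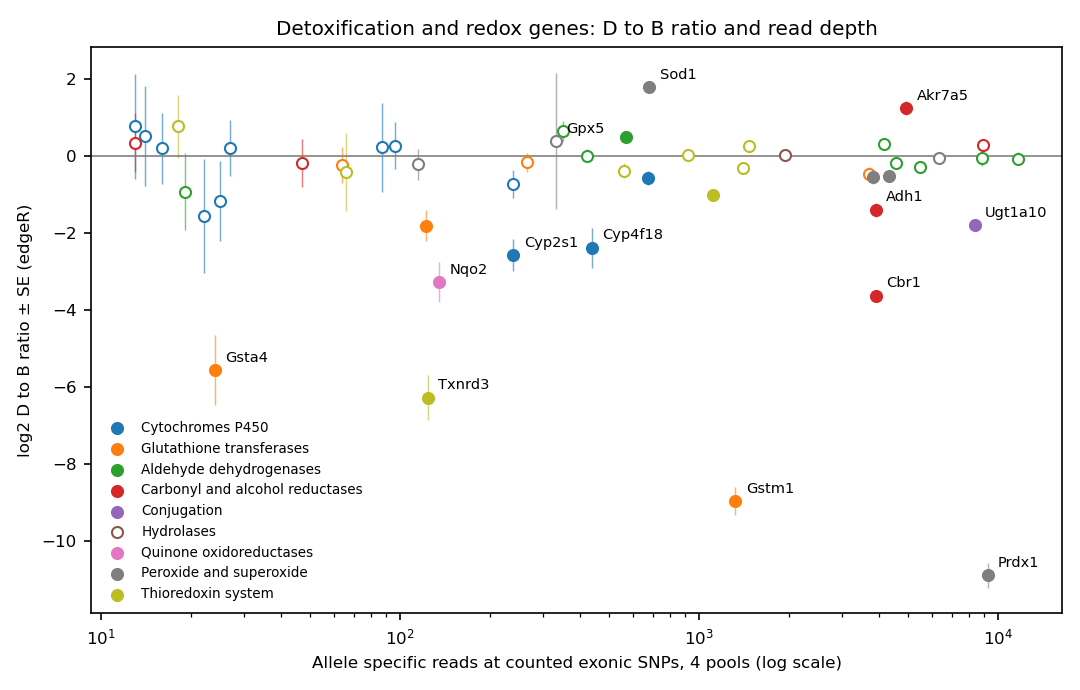
Log2 D to B ratio with its SE (edgeR) against the number of allele specific reads over 4 pools (log scale), 1 point per member with at least 10 reads. Filled points passed the strain test at an adjusted p under 0.05; Prdx1 and Gstm1 lie far below all other deeply read members, and most of the aldehyde dehydrogenases lie near 0. The fitted value of Gsta4, with no D read, depends on the prior count of the fit.

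Among the peroxide and superoxide enzymes, Prdx1 was read almost entirely from B and Sod1 mostly from D. Prdx1 (chr4:116358149-116373427), a cytosolic peroxiredoxin, gave 2718, 2543, 2017 and 1951 B reads and 2, 0, 2 and 0 D reads. Its D share was 0.0433% (95% Wilson interval 0.0169 to 0.111%), and its log2 D to B ratio was -10.89 ± 0.32 (SE, 4 pools; adjusted p = 7.75e-10). All 4 of its SNPs, 3 of them synonymous and 1 in the 3′UTR, carried fewer than 1% D reads. No pool had D reads at a level near that of B. Whether D DNA carries the listed D bases at these SNPs was not tested.

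Prdx3, the mitochondrial peroxiredoxin, gave 559, 659, 653 and 487 B reads and 327, 389, 466 and 280 D reads, a D share of 38.3% (log2 -0.57 ± 0.16, adjusted p = 0.0275). Prdx6, which also has a phospholipase activity, gave 661, 570, 819 and 583 B reads and 474, 360, 500 and 344 D reads, a D share of 38.9% (log2 -0.54 ± 0.15, adjusted p = 0.0302). In both, every pool had more B than D. Both lost their call when either DxB pool was left out: without the pool labelled DxB male the adjusted p was 0.151 for Prdx3 and 0.164 for Prdx6, and without the pool labelled DxB female it was 0.125 and 0.0676, while the ratios stayed between -0.50 and -0.55. Prdx6 also lost it without the pool labelled BxD female (adjusted p = 0.0551) and kept it without BxD male, and Prdx3 kept it without either BxD pool.

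Prdx5, with 6349 reads and a D share of 46.8%, did not pass the test (log2 -0.07 ± 0.12, adjusted p = 0.766). Prdx2 had 115 reads and a D share of 43.5% (adjusted p = 0.769), but its SNPs differed. The SNP in a coding exon gave 19 B and 49 D reads (adjusted p = 0.0486 over all SNPs), and the SNPs in the 3′UTR gave 30 B with 1 D read (adjusted p = 2.89e-04) and 16 B with 0 D reads (adjusted p = 0.0113). The D windows of these 3′UTR SNPs are among those found in mm9.

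Sod1, the copper and zinc superoxide dismutase of the cytosol, was measured at 1 SNP in its 5′UTR (chr16:90220987-90226567 for the gene). It gave 45, 52, 31 and 36 B reads against 150, 128, 135 and 105 D reads. D was higher by more than the spread between pools, with a D share of 76.0% (72.6 to 79.0%) and a log2 ratio of 1.78 ± 0.16 (adjusted p = 7.42e-06). The B window of this SNP was found at more than 1 place in mm9.

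**Figure D2:**
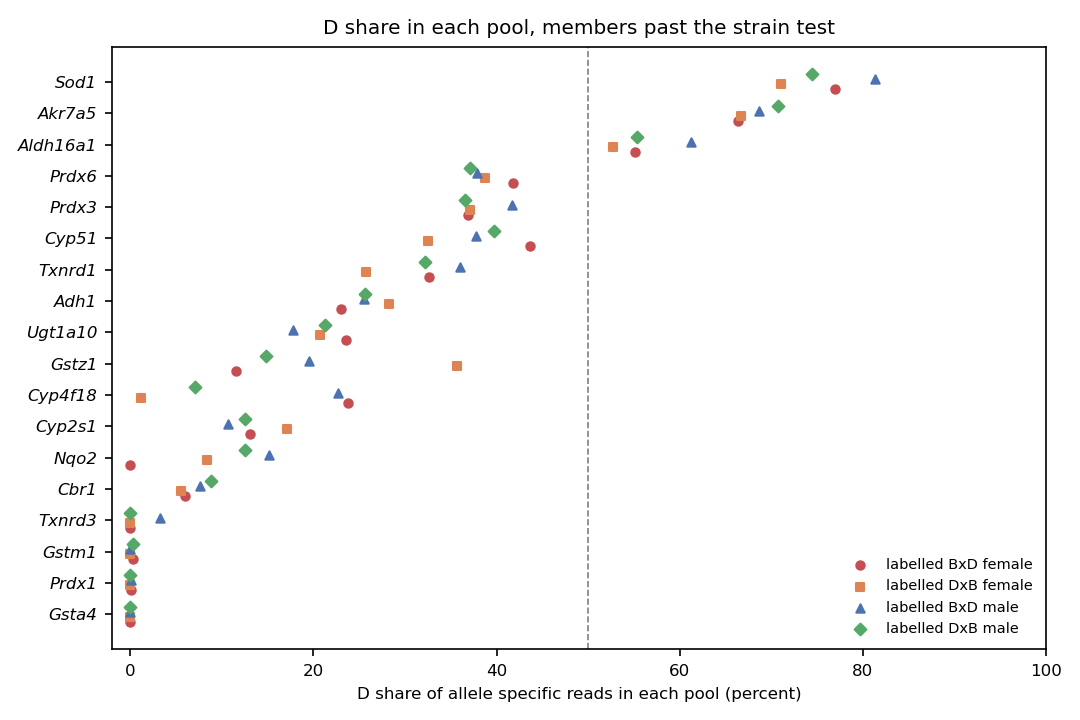
D share of allele specific reads (percent) in each of the 4 pools, named by their labels, for the 18 members that passed the strain test, ordered by D share over all pools. The dashed line marks equal reads: Sod1, Akr7a5 and Aldh16a1 lie above 50% in every pool and the other 15 below it in every pool.

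Glutathione transferases were read more from B in the 3 members that passed. Gstm1 (chr3:107815173-107820891, minus strand), of the mu class, had 1 SNP, in the 3′UTR, with 298, 327, 353 and 343 B reads and 1, 0, 0 and 1 D reads. B exceeded D 661-fold there (95% counting interval 182 to 5460; adjusted p = 7.52e-09). The B window of this SNP was found at more than 1 place in mm9, and the mu class has closely related copies, so its reads are uncertain as to their gene. Gsta4 (chr9:78039773-78057155), which conjugates 4-hydroxynonenal from oxidized lipid, had 1 SNP in its 5′UTR with 6, 7, 6 and 5 B reads and no D read. Against the 3 D reads that a count of 0 allows over the 4 pools, B was at least 8-fold higher at this SNP (adjusted p = 0.00284), a limit that covers counting error only. The intron reads of Gsta4 lay on the other side, with 15 B and 36 D. Whether D DNA differs from B at this SNP was not tested. Gstz1, which also acts in tyrosine breakdown, gave 23, 18, 33 and 23 B reads and 3, 10, 8 and 4 D reads at a SNP in the 3′UTR (log2 -1.82 ± 0.41, adjusted p = 0.00749). It did not pass without the pool labelled DxB male (log2 -1.66, adjusted p = 0.0647).

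Gsto1, an omega class transferase and the family's member with the most reads, gave 439, 594, 699 and 493 B reads and 319, 387, 476 and 288 D reads. Its D share was below 50% in every pool and 39.8% over all (log2 -0.48 ± 0.20). It did not pass the main test (adjusted p = 0.137) and passed with the pool as a block (adjusted p = 2.07e-04). All 7 of its SNPs lay between 33.4% and 43.5% D. Gstcd (266 reads) and Gsto2 (64 reads) did not pass, with D shares of 45.5% and 43.8%.

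In the thioredoxin system the reductases with counted SNPs, Txnrd1 and Txnrd3, passed with B higher. Txnrd1, the cytosolic reductase (chr10:82296696-82360469), gave 190, 248, 162 and 164 B reads and 92, 86, 91 and 78 D reads (log2 -1.01 ± 0.15, adjusted p = 4.97e-04). This came from 1 of its 4 SNPs: a non-synonymous SNP had 309 B reads and 1 D read, while the other 3 had D shares of 35.2%, 42.9% and 45.0% and did not pass the test on single SNPs. Txnrd3, a reductase with a glutaredoxin domain best known from testis, gave 30, 31, 30 and 32 B reads and 0, 0, 1 and 0 D reads at 2 SNPs of 1 exon (log2 -6.28 ± 0.58, adjusted p = 7.31e-06). B exceeded D 123-fold, with a counting interval of 21.7 to 4897.

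The thioredoxin domain genes were closer to even. Txndc12 gave 245, 193, 218 and 152 B reads and 202, 143, 125 and 122 D reads (log2 -0.32 ± 0.13, adjusted p = 0.128, with the block 0.0219). Of its 4 SNPs, 2 lie in no exon of Txndc12 but in exons annotated to Kti12 and A730015C16Rik, and these gave 88 B and 79 D reads. Txndc11 gave 703 B and 767 D reads, a D share of 52.2% (adjusted p = 0.323, with the block 0.0374). The remaining members, Txndc1, Txndc9, Txndc6 and Txndc14, did not pass either way, and their D shares ran from 40.6% for Txndc9 to 61.1% for Txndc14, which had 18 reads.

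The reductases divided. Akr7a5 (chr4:138866659-138874341), an aldo-keto reductase that acts on aflatoxin aldehydes and succinic semialdehyde, was higher from D: it gave 355, 442, 430 and 342 B reads against 701, 885, 944 and 828 D reads (log2 1.24 ± 0.17, adjusted p = 2.45e-04). Its 4 SNPs, in 3 exons, lay between 66.3% and 72% D, and each passed the test on single SNPs. No B pool reached the lowest D pool. Akr1a4, an aldehyde reductase and the family's member with the most reads, gave 1089, 1256, 965 and 931 B reads and 1197, 1389, 1074 and 1031 D reads, a D share that ran from 52.4% to 52.7% in the 4 pools (log2 0.27 ± 0.13, adjusted p = 0.22, with the block 7.71e-04).

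Cbr1 (chr16:93608082-93610750), a carbonyl reductase of quinones and prostaglandins, and Adh1 (chr3:137923955-137953662), an alcohol dehydrogenase of ethanol and retinol, were higher from B as sums. Cbr1 gave 1187, 968, 895 and 591 B reads and 76, 57, 74 and 57 D reads (log2 -3.63 ± 0.15, adjusted p = 7.52e-09). All 8 of its SNPs lie in its last exon, and they differed. At 6 of them, D reads were under 1%, with 1 D read among 3412 in all, while SNP 4 gave 90 B and 57 D reads and SNP 8, in the 3′UTR, gave 140 B and 206 D reads. SNP 8 passed the test on single SNPs with D higher (adjusted p = 0.0482), the opposite direction to 5 others that passed. The D window of SNP 4 was found in mm9.

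Adh1 gave 794, 796, 847 and 458 B reads and 237, 313, 291 and 158 D reads (log2 -1.40 ± 0.18, adjusted p = 1.34e-04). A pair of non-synonymous SNPs gave 1224 B and 12 D reads and 293 B and 0 D reads, and a pair in the 3′UTR gave 831 B and 631 D reads and 547 B and 356 D reads. The second pair did not pass the test on single SNPs (adjusted p = 0.434 and 0.123), and with the block it did (adjusted p = 0.0301 and 1.68e-04). Nqo2 (chr13:34056528-34080334), a quinone oxidoreductase, had 1 non-synonymous SNP with 42, 33, 28 and 21 B reads and 0, 3, 5 and 3 D reads, a D share of 8.15% (4.61 to 14%; log2 -3.28 ± 0.51, adjusted p = 6.2e-04).

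**Figure D3:**
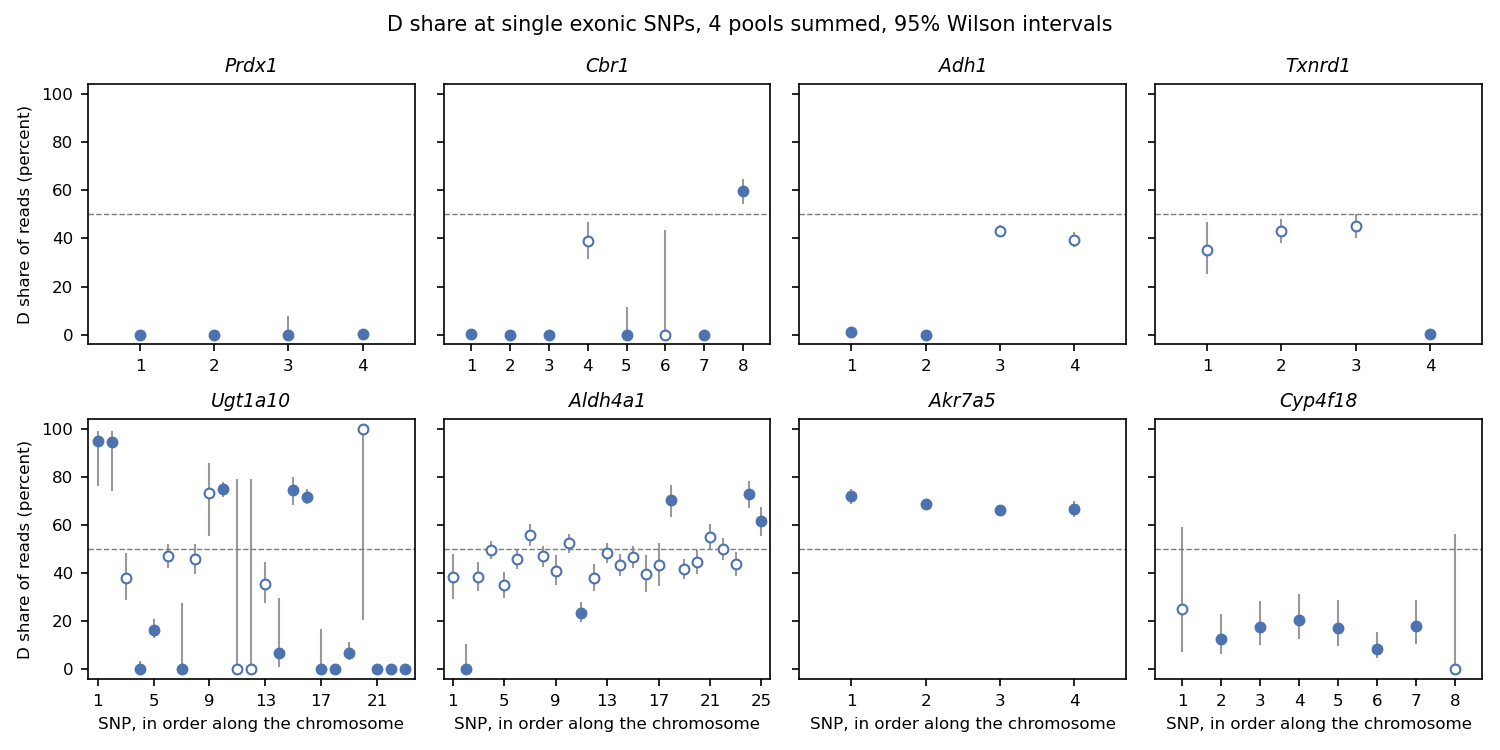
D share of reads (percent) at each counted exonic SNP of 8 members, the 4 pools summed, with 95% Wilson intervals; SNPs are numbered in order along the chromosome and filled points passed the test on single SNPs. The 4 SNPs of Akr7a5 lie together near 70%, while Cbr1, Adh1, Txnrd1 and Ugt1a10 each have SNPs near 0 beside SNPs of 35.2% or higher, and Ugt1a10 also has SNPs in between, such as SNP 5 at 16.5%.

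Among cytochromes P450, Cyp2s1, Cyp4f18 and Cyp51 passed, all with B higher. Cyp2s1 (chr7:26587494-26601932, minus strand), which metabolizes retinoic acid and fatty acid peroxides, had 1 SNP in the 3′UTR with 86, 34, 67 and 21 B reads and 13, 7, 8 and 3 D reads (log2 -2.58 ± 0.42, adjusted p = 8.91e-04). Cyp4f18, which hydroxylates leukotriene B4 in myeloid cells, gave 96, 85, 99 and 92 B reads and 30, 1, 29 and 7 D reads (log2 -2.39 ± 0.52, adjusted p = 0.00651). At its 8 SNPs the D share lay between 0% and 25.0%, and 6 of them passed on their own with B higher. The call was lost without the pool labelled DxB male (log2 -2.10, adjusted p = 0.0633). Cyp51, the lanosterol demethylase of cholesterol synthesis, gave 89, 143, 107 and 79 B reads and 69, 69, 65 and 52 D reads (log2 -0.59 ± 0.18, adjusted p = 0.046). It lay just inside the threshold and outside it without the pool labelled DxB female, BxD male or DxB male (adjusted p = 0.201, 0.144 and 0.135).

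Cyp39a1, an oxysterol hydroxylase, gave 58, 32, 34 and 29 B reads and 45, 18, 11 and 12 D reads and passed with the block alone (adjusted p = 0.236 and 0.0252). Cyp8b1, a sterol hydroxylase of bile acid synthesis in liver, had 96 reads and a D share of 53.1% (43.2 to 62.8%). The other 25 P450 genes had at most 87 reads each, and at such depths differences of the size seen for Cyp51 were not detectable.

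Of the conjugation enzymes, Ugt1a10 alone had more than 8 reads. It gave 1884, 1724, 1763 and 1241 B reads and 582, 451, 381 and 336 D reads (log2 -1.80 ± 0.12, adjusted p = 4.14e-07). Its symbol covers a locus (chr1:89951963-90115579) where several UDP-glucuronosyltransferase genes each have a first exon and share the last ones, and 20 of its 23 SNPs lie in no exon of Ugt1a10 but, as annotated, in exons of Ugt1a5, Ugt1a6a, Ugt1a6b, Ugt1a7c and Ugt1a9. The 3 SNPs in the shared last exons gave 4911 B reads and 1 D read, a D share of 0.02% (0.004 to 0.115%). The 20 SNPs in the first exons gave 1701 B and 1749 D reads as a sum, a D share of 50.7% (49 to 52.4%). This even sum joins SNPs that lay far apart. In Ugt1a7c they included 283 B with 56 D reads and 172 B with 515 D reads. In Ugt1a6a they included 174 B with 0 D reads and 223 B with 569 D reads. Over the 8 SNPs of Ugt1a7c the D share was 48.8%, over the 6 of Ugt1a6a 53.4%, over the 2 of Ugt1a6b, with 75 B and 41 D reads, 35.3%, and over the 2 of Ugt1a9, with 2 B and 36 D reads, 94.7%. Within the locus 10 SNPs passed with B higher and 5 with D higher. Of the 3 in the last exons, 2 are marked NOOKAY in the files.

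Aldehyde dehydrogenases were read nearly evenly as a family: 36024 reads gave 19172 B and 16852 D, and 1 of 9 members passed. Aldh16a1 gave 78, 62, 55 and 54 B reads and 96, 69, 87 and 67 D reads (log2 0.48 ± 0.15, adjusted p = 0.0478). It did not pass with any 1 pool left out (adjusted p between 0.0996 and 0.231), nor without its SNP that is also listed for Pih1d1 (log2 0.27, adjusted p = 0.411). That SNP lies in the 5′UTR and gave 74 B and 127 D reads, and the other 2 had D shares of 52.5% and 51.5%. Aldh3b1, with 1 SNP, lay outside the threshold (144 B and 208 D reads, log2 0.64 ± 0.25, adjusted p = 0.116, with the block 0.00977). Aldh1a1, which makes retinoic acid and had the most reads of all members, gave 2275, 1399, 1456 and 1113 B reads and 1993, 1142, 1282 and 1000 D reads, a D share of 46.5% (log2 -0.08 ± 0.17, adjusted p = 0.82).

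In Aldh4a1, of proline breakdown, and Aldh1a3, of retinoic acid synthesis, SNPs of 1 gene were called in opposite directions. Aldh4a1 as a sum did not pass (8814 reads, D share 46.8%), yet of its 25 SNPs 2 passed with B higher and 3 with D higher. Of these, 1 SNP in the 3′UTR gave 300 B and 93 D reads (adjusted p = 1.79e-05) and another in the same 3′UTR gave 62 B and 168 D reads (adjusted p = 2.06e-05). Aldh1a3 gave 668, 449, 414 and 402 B reads and 805, 511, 519 and 383 D reads (log2 0.31 ± 0.15, adjusted p = 0.232, with the block 0.00749). Its 5′UTR SNP 22 gave 63 B and 15 D reads and its 3′UTR SNP 8 gave 34 B and 92 D reads, and both passed, in opposite directions. Aldh7a1 passed with the block alone (5473 reads, D share 42.7%, adjusted p = 0.211 and 0.00596). Aldh9a1, Aldh18a1 and Aldh1b1 did not pass. Ephx1, the microsomal epoxide hydrolase, gave 269, 264, 254 and 225 B reads and 191, 264, 248 and 231 D reads (log2 0.03 ± 0.16, adjusted p = 0.957).

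As single SNPs, 68 of the 291 member SNPs passed (51 with B higher, 17 with D higher; adjusted over all SNPs), against 12.2% of all SNPs (8.49% with B higher, 3.66% with D higher). These 68 lie in 24 members. In 14 members at least 2 SNPs passed, and in 5 of the 14 (Aldh1a3, Aldh4a1, Cbr1, Prdx2 and Ugt1a10) they passed in opposite directions. These 2 shares were not computed over all genes, so whether they set the members apart is not known. Among SNPs with at least 100 reads, 16 of 135 of the members (11.9%) had fewer than 1% D reads, in 6 genes, against 823 of 18143 (4.54%) over all genes. Fewer than 1% B reads were seen at 0 of the 135 and at 33 of the 18143. SNPs with fewer than 1% D took 20.0% of the members' reads and 4.6% of all reads. Such SNPs with at least 100 reads lie in the sums of Prdx1, Gstm1, Cbr1, Adh1, Txnrd1 and Ugt1a10. Of the other members that passed, Gsta4 (24 B and 0 D reads), Txnrd3 (79 B and 0 D) and Cyp4f18 (3 B and 0 D) each had a shallower one, as did some members that did not pass. Whether the listed variants are present in D DNA was not tested for any of them.

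Without the SNPs that had fewer than 1% of reads from 1 of the alleles, 9 of 56 members passed (7 B, 2 D) and 9.38% of all genes (5.65% B, 3.72% D). The D share of the members' reads was then 47.6%, against 38.1% with all SNPs and 48.7% over all genes without these SNPs. The 9 were among the 18: Sod1 (log2 1.74), Akr7a5 (1.20), Prdx3 (-0.60), Prdx6 (-0.57), Gstz1 (-1.86), Cyp4f18 (-2.42), Cyp2s1 (-2.62), Nqo2 (-3.31) and Txnrd3 (-4.84). For Txnrd3 the SNP with 79 B and 0 D reads was removed. Its other SNP, with 44 B reads, stayed above the 1% limit through 1 D read. Prdx1, Gstm1 and Gsta4 had no SNP left. Of the other 6, Adh1 (log2 -0.39, adjusted p = 0.283), Txnrd1 (-0.31, 0.262), Cyp51 (-0.63, 0.0568) and Aldh16a1 (0.44, 0.0968) kept their direction but did not pass, and Cbr1 (0.30, 0.366) and Ugt1a10 (0.41, 0.0865) turned to more D and did not pass.

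**Figure D4:**
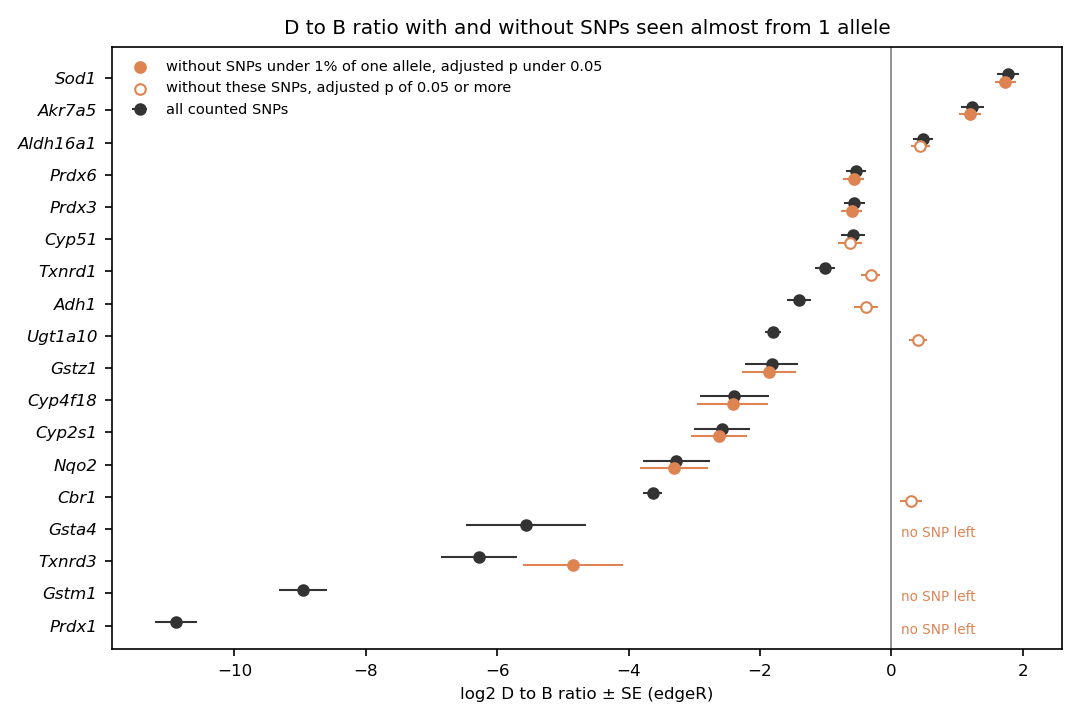
Log2 D to B ratio with its SE (edgeR) for the 18 members that passed, from all counted SNPs (black) and without SNPs that had fewer than 1% of reads from 1 allele (orange; filled where the adjusted p stayed under 0.05). Cbr1 and Ugt1a10 move from -3.63 and -1.80 to values above 0, and 9 members stay on the same side with an adjusted p under 0.05.

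The files also list reads at SNPs inside introns, which the tests above did not use. Of the 18 members, 12 had at least 50 intron reads, and in 11 of them the intron reads lay on the same side of an even split as the exon reads. The share over all genes was not computed. Counted exonic reads carried 45.8% to 46.9% D per pool, so a D share slightly below 50% does not set a member apart. Adh1 is among the 11 with 101 B and 100 D intron reads. In 5 of the 11 the 95% Wilson interval also left out 50%. Akr7a5 gave 204 B and 336 D intron reads, a D share of 62.2% (58.1 to 66.2%). Cyp4f18 gave 105 B and 26 D (19.9%, 13.9 to 27.5%), Prdx6 191 B and 116 D (37.8%, 32.5 to 43.3%), Ugt1a10 270 B and 107 D (28.4%, 24.1 to 33.1%) and Aldh16a1 43 B and 65 D (60.2%, 50.8 to 68.9%). In 5 others introns were nearer to even than exons. Intron D shares were 43.4% for Cbr1 (6.76% in exons), 49.8% for Adh1 (25.7%), 45.9% for Txnrd1 (31.2%), 45.5% for Gstz1 (20.5%) and 52.9% for Sod1 (76.0%). Prdx3 had 39.7% in introns and 38.3% in exons. Gsta4 lay on the other side, with 15 B and 36 D intron reads (70.6%, 57.0 to 81.3%) and no D read in its exons. Prdx1 and Gstm1 had no intron read. Differences between intron and exon shares were not tested.

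Because B and D mothers were both used, the origin of the allele from mother or father could be compared as well. No member passed that test, with the labels (1 member at an unadjusted p under 0.05) or with the file names (0 members), in edgeR, and DESeq2 called none with the labels (0 members at an unadjusted p under 0.05). Over all genes 0.0% passed with the labels and 0.0497% with the file names. If the file names hold, the labels exchange cross and sex for 2 pools, and values by label compare neither the parents nor the sexes correctly. DESeq2 was not run with the file names, here or by sex. Without the 2 pools in question 0 members passed (0 at an unadjusted p under 0.05).

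The D to B ratio also did not differ by sex for any member past the threshold. By edgeR 0 members had an unadjusted p under 0.05 with the labels and 3 with the file names, DESeq2 called none with the labels (0 members at an unadjusted p under 0.05), and 0.0995% and 0.0% of all genes passed with the labels and the file names. The 3 were Cyp4f18, Gstcd and Prdx1, and Prdx1 had 4 D reads in all. Cyp4f18 gave 30 and 29 D reads in the pools labelled BxD female and BxD male, both named female by file name, and 1 and 7 in the pools labelled DxB female and DxB male, both named male. The difference of the log2 ratio, male minus female, was -2.69 by file name (unadjusted p = 7.06e-04, adjusted p = 0.9999) and 0.11 by label (unadjusted p = 0.92). Its B reads, 85 to 99, were alike in all 4. Without the 2 pools in question 1 pool of each sex would remain, and no test was made.

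Levels of the members, as B and D reads together in rpm, moved little between pools. For 35 members with at least 100 reads and reads in every pool, the highest pool stood at 1.13 to 3.24 times the lowest, with a median of 1.38, and 3 members (Cyp2s1, Prdx2 and Cyp39a1) at 2 or more. Cyp2s1 stood at 23.0, 9.76, 18.1 and 7.08 rpm. Gpx5, a glutathione peroxidase secreted by the epididymis, was read in 1 pool only: 151 B and 180 D reads (97.7 rpm) in the pool labelled DxB male and 0 in each of the others. Adam7, another epididymal gene and the only other one of 6 on the list of epididymis markers with counted SNPs, gave 180 reads in that pool and 0 in the others. In a bulk sample, more cells of a type and more RNA per cell cannot be told apart. Cyp2c29, a P450 typical of liver, stood at 3.48, 0, 16.1 and 1.48 rpm. The liver marker Apoa1, 1 of 4 on its list with counted SNPs, gave 25.1, 8.1, 78.8 and 39.0 rpm, so both were highest in the pool labelled BxD male. The part of other tissue in these values was not tested.

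Genes of the same pathways outside the name rule were counted in the same way. Of 94 listed, 52 could be tested and 11 passed (7 B, 4 D; 21.2%, against 18.1% of all genes), with a median log2 ratio of -0.05. Glrx5, a mitochondrial glutaredoxin of iron-sulfur cluster assembly, gave 1831 B and 2 D reads (adjusted p = 4.33e-08). Hnmt, which methylates histamine, gave 349 B and 25 D reads (log2 -3.67 ± 0.25, adjusted p = 5.3e-07). Nnt, which supplies mitochondrial NADPH, gave 525 B and 1123 D reads at 12 SNPs (log2 1.20 ± 0.14, adjusted p = 7.42e-05), and Glrx, the cytosolic glutaredoxin, 77 B and 167 D reads (log2 1.25 ± 0.25, adjusted p = 0.00336). Xdh, Ugdh, Cyb5b, Msrb3 and Aox3 were also called with B higher, and Esd and Dhrs3 with D higher. Catalase (Cat, 16441 reads, D share 46.7%), glutathione reductase (Gsr, 45.8%) and Nfe2l2, the regulator of many of these genes (48.2%), did not pass. Without the SNPs that had fewer than 1% of reads from 1 allele, 5 of 46 passed: Hnmt and Xdh (log2 -1.98) with B higher, and Nnt, Glrx and Esd with D higher. The log2 ratio of Ugdh then went from -2.18 to -0.04 (adjusted p = 0.99) and that of Cyb5b from -1.43 to -0.17 (adjusted p = 0.696). Aox3 (log2 -2.47, adjusted p = 0.0631) and Dhrs3 (0.44, adjusted p = 0.0542) kept their direction without passing, and no SNP was left for Glrx5 and Msrb3.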

How the data were processed

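RNA of 4 F1 fat pad pools was sequenced as 50 bp read pairs. Per the study's methods, mates were aligned as single reads to mm9 with mrsFAST (up to 3 mismatches), D variants were masked, unmapped reads went to TopHat, and uniquely mapped reads were counted; its supplement does not settle whether masking was applied. The submitters' notes name CASAVA and TopHat 1. The authors deposited raw counts of B and D reads per SNP, without normalization. A fragment can be counted more than once, and no removal of PCR copies is given in the sources used here, so intervals and limits from 0 counts cover counting error only. A reference of the B genome can favour B reads.

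SNPs in rows marked EXON were used. SNPs with the same base in both strains were left out, and of exonic SNPs within 18 bp the first was kept (44998 SNPs, 8042 genes). B and D counts were summed per gene. The resulting 8 allele libraries were tested with edgeR 4.0.16 in R 4.3.3 (TMM, quasi-likelihood test, Benjamini-Hochberg adjustment over all genes, threshold 0.05), with strain, parent of origin, or strain by sex as the tested factor. The SE of a log2 ratio is its size over the root of the F statistic. Alternatives were DESeq2 1.42.0, other scalings, filters and SNP sets, the pool as a block, the file-name identity of 2 pools, and each pool left out. Those without the 2 pools in question, with other exon marks, without positions shared by genes, and by file name with a block or strain covariate were chosen after seeing the data. The tests were run on simulated counts with known changes, drawn independently for each library, without the pairing of B and D in a pool. The counts simulated for parent of origin held no strain effect. Limits that the check had to meet were set for edgeR by strain and by parent of origin only. B and D reads of a pool come from the same animals, so the pool can serve as a block. Their deviations from the allele means correlated at 0.643, 0.103, 0.669 and 0.0506 in the 4 pools (4376 genes with at least 200 counts). In the pools labelled DxB female and DxB male they were thus hardly shared.

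Shares have 95% Wilson intervals and the limit from a count of 0 is 3 counts. Windows and gene positions came from NCBIM37 (mm9) and GENCODE M1, where 73 of 76 symbols matched. Members and lists were chosen with earlier results of these data known. Members named in full were those past the strain test with 1 direction in 4 pools, the member with the most reads of each family, members with SNPs called in opposite directions, and the 2 nearest to the threshold on each side; Prdx5, Gstcd, Gsto2, Cyp8b1, Cyp39a1, Cyp2c29 and the other members were added after their values were seen. Figures were drawn with matplotlib 3.10.9 and tables made with scipy 1.17.1, numpy 2.4.6 and pandas 2.3.3 in Python 3.11.15.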

Additional observations from a re-analysis of the deposited data

Results flagged for a closer look

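Dixon's test at the 95% level was run on 29 sets of 4 pool values, of which 27 were D shares of the members named in full and 2 were levels. The highest or lowest pool stood apart in 4. Chance flags about 1 in 20 such sets where the values are not tied. Ephx1 had a D share of 41.5% in the pool labelled BxD female and 49.4% to 50.7% in the others. Prdx3 had 41.6% in the pool labelled BxD male and 36.5% to 37.1% in the others. Txnrd3 had 3.23% in the pool labelled BxD male, from 1 D read among 31, and 0% in the others. Gpx5 stood at 97.7 reads per 1000000 counted reads in the pool labelled DxB male and 0 in the others, where Adam7, another gene of the epididymis, was also read in that pool alone. In Txnrd3 and Gpx5 the other pools tied at 0, so any value above 0 in 1 pool would be flagged, and the rate of 1 in 20 does not cover them. Neither Ephx1 nor Prdx3 changed the side of its strain test without the pool that stood apart.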

How the results depend on the processing

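Over 17 alternatives and 29 named members, 447 of 487 values kept their direction and their side of the threshold, 29 lost the threshold, 9 gained it and 2 reversed. The reversals were Cbr1 (log2 0.30) and Ugt1a10 (0.41) without SNPs that had under 1% of reads from 1 allele; those SNPs hold most of their B reads. Without them 9 members and 640 genes passed in place of 18 and 1459. With the pool as a block 26 members and 2458 genes passed, and without the 2 pools in question 13 and 748. With 1 library size per pool the median log2 ratio of all genes moved by -0.12, and the calls over all genes were 1208 with B higher and 241 with D higher, against 1066 and 393; Aldh16a1 then lost its call and Gsto1 gained one. Aldh16a1 also lost it in DESeq2 (adjusted p = 0.0665), where 17 members and 1465 genes passed. Leaving out each pool in turn gave 12 to 18 members, 1083 to 1226 genes, 55 to 64 member SNPs (68 with all pools) and 4 to 7 genes in the strain by sex test (8 with all pools). By file name 4 genes passed for parent of origin (0 by label), 8 with strain as a covariate, and 0 for strain by sex, or 2 with the replicate block; no member was among them. Prdx2 passed when exons were taken from the annotation column (log2 -1.93, adjusted p = 0.00273). The block changed no call of parent of origin or strain by sex for the members. Depth limits the 25 members with under 10 reads, and 4 libraries per allele limit all calls.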
